A study of Mus musculus with 27 samples.

Results

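The laminar adhesion genes described here encode 10 cell-surface recognition proteins known from the layers and cell mosaics of the retina: Dscam, Dscaml1, Sdk1, Sdk2, Cntn1, Cntn2, Cntn4, Cntn5, Megf10 and Megf11. They were taken by their symbols from a deposited table of 38168 annotated features, and all 10 were listed. All 10 also passed a filter of at least 1 CPM (the reads of a feature scaled to the size of its library) in at least 3 libraries, which 31760 features passed. Dscam and Megf11 each have 2 entries in the table, and the entry with the higher mean was used, with the other given beside it. The data are RNA-seq of whole retina from untreated wild type C57BL/6J mice at embryonic days 14 and 17 (E14 and E17, with 3 libraries each) and postnatal days 1 (P1, 4 libraries), 6 (P6, 3), 15 (P15, 4), 28 (P28, 4) and 60 (P60, 6). Wild type status, strain and tissue were shared by all 27 libraries, so age was the one labelled difference. The labels give 3 retinas per library, while the study's methods describe pools of embryos or of postnatal mice and, at P60, 2 pools and 4 single mice, without naming which P60 library is which. Libraries up to P1 were of mixed sex and later ones of males, so sex and age cannot be told apart across that boundary. Nothing in the labels ties libraries to separate litters, and p-values measure only the spread between these libraries.

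Neurons of the retina meet their partners in thin layers of neuropil, and cells of one type space themselves in regular mosaics. DSCAM and its relative DSCAML1, and the Sidekick proteins SDK1 and SDK2, are immunoglobulin superfamily proteins that bind copies of themselves across cell contacts. DSCAM and DSCAML1 are known for keeping processes and cell bodies of like cells apart, and Sidekicks for joining neurons within the same sublayer. Contactins are immunoglobulin proteins held to the membrane by a lipid anchor, and they act with partners such as Caspr proteins (Cntnap genes) and the amyloid precursor protein (App). MEGF10 and MEGF11 carry repeats like those of epidermal growth factor and are known for the spacing of starburst amacrine cells and horizontal cells.

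Each library held between 7077781 and 11332323 recovered reads (median 7969873). Libraries of the same age correlated at r = 0.977 to 0.992 over tested features, except at P60, where r ran from 0.940 to 0.983 and where replicates 1 and 2 stood apart from the other 4 libraries for several of the genes described here. Markers matched the labelled tissue and ages: the summed level of 5 rod markers ran from 20.6 to 26.8 CPM at E14 and from 24314 to 29463 CPM at P60, while 5 progenitor markers ran from 5587 to 5824 CPM at E14 and from 15.1 to 28.8 CPM at P60. Lists for cells other than retinal neurons, progenitors and Müller glia had low sums, of at most 49.0 CPM. The sums were 22.3 to 49.0 CPM for 4 oligodendrocyte markers, 1.66 to 48.3 CPM for 4 markers of pigment epithelium and 3.00 to 26.1 CPM for 3 vessel markers. They were 9.66 to 24.6 CPM for 4 microglia markers, 10.4 to 44.3 CPM for 3 blood markers and 3.00 to 17.3 CPM for 3 astrocyte markers. Some differed between ages: pigment epithelium markers summed to 1.66 to 5.42 CPM at E17 and to 28.8 to 48.3 CPM at P15. Vessel markers summed to 3.00 to 4.74 CPM at E14 and to 21.4 to 26.1 CPM at P15. Lens markers (4 genes, summing to 2.01 to 7.11 CPM, with Cryaa or Crygs at 0 in all libraries of some ages) and the 3 of 4 muscle markers in the table (0.400 to 6.46 CPM, Myh3 at 0 at P28) were lower still. In whole tissue, a lower level can come from fewer cells of a type or from less RNA per cell, and these cannot be told apart.

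All 10 genes varied over the 7 ages (limma F test), as did 83.0% of the features tested. Between embryonic retina (mean of E14 and E17) and mature retina (mean of P15, P28 and P60), 4 genes rose (Dscaml1, Cntn1, Cntn4 and Cntn5), against 35.0% of features, and 4 fell (Sdk1, Sdk2, Cntn2 and Megf10), against 40.4% of features, by limma at an adjusted p under 0.05. A change of at least 2-fold beside that threshold was met by 3 rising genes (Dscaml1, Cntn4 and Cntn5), where 14.9% of features met it, and by 1 falling gene (Cntn2), where 16.1% of features did. The median log2 change of the 10 genes was -0.02, against -0.06 for all features. By edgeR on the recovered reads, 8 genes were again called, where 24062 of 31760 features were. Of these genes 5 rose, since Dscam was added and Megf10 lost. The same numbers of genes and the same exchange were found by limma with the P60 libraries left out, where the share of all features was not counted. The genes did not move as a group: 4 had their highest mean level at a mature age (Dscaml1, Cntn4, Cntn5 and Megf11, the last at 74.7 CPM at P15 and 74.6 at E17), 2 at P6 (Dscam and Cntn1), 1 at P1 (Megf10) and 3 before birth (Sdk1, Sdk2 and Cntn2).

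**Figure D1:**
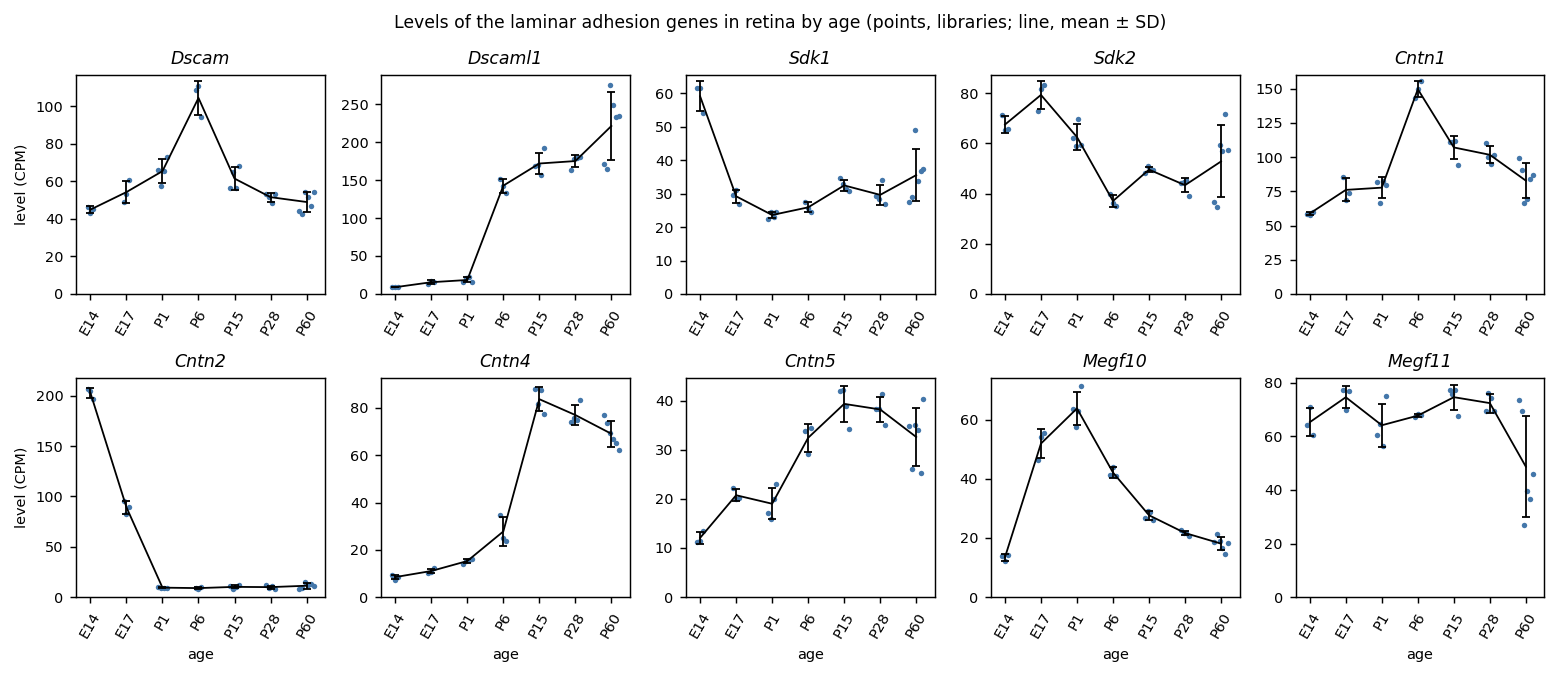
Level of each of the 10 genes (CPM, linear axis from 0, its own scale in each panel) at the 7 ages, which are drawn at even spacing. Points are libraries and lines join age means with bars of 1 SD; Cntn2 fell from 203 CPM at E14 to 9.42 CPM at P1, Dscaml1 rose from 18.4 to 143 CPM between P1 and P6, and Dscam and Cntn1 peaked at P6.

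Sequence upstream of the start site was printed for the members with a RefSeq entry that changed most in each direction, Cntn2 and Cntn4, and for the Sidekick pair, as paralogs that can be set side by side. Of the 10 genes, 7 had a promoter entry, and Dscaml1, Megf10 and Megf11 had none. Each window holds the 250 bases before a RefSeq start in GRCm38.p6, written 5′ to 3′ on the strand of the gene: chr1:132542941-132543190 (minus) for Cntn2, chr6:106118515-106118764 (plus, the first of 2 listed windows) for Cntn4, chr5:141241284-141241533 (plus) for Sdk1 and chr11:114067030-114067279 (minus) for Sdk2. Against the gene spans of the GENCODE annotation given with each gene, the Cntn2 and Cntn4 windows lie inside the span, and the Sdk1 and Sdk2 windows run into its first bases. Capitals mark, on either strand, the letters CAGCTG (an E-box form), the letters TAATTA (a homeodomain core), the letters GGGCGG (a GC box) or the letters CCAAT (the core of a further promoter box), and no marked runs overlapped.
Cntn2: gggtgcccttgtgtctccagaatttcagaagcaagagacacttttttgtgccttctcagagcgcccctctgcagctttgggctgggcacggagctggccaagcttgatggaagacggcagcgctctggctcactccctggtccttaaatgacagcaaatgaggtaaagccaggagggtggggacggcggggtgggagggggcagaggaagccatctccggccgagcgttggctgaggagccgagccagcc
Cntn4: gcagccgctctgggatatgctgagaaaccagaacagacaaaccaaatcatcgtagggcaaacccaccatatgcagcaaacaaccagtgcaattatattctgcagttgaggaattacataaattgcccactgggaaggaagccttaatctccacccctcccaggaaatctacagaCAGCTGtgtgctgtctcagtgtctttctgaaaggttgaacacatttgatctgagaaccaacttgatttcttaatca
Sdk1: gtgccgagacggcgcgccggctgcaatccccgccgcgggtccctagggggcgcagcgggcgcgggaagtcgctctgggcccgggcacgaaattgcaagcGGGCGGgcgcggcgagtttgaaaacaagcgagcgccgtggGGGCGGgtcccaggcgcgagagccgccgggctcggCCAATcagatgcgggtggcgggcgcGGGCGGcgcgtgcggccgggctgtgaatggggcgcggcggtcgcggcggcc
Sdk2: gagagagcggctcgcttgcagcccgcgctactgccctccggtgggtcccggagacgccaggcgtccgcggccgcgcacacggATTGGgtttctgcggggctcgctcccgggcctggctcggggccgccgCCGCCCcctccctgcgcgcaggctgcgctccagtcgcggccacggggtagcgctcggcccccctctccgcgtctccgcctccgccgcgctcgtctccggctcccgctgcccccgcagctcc
None of the 4 letter runs was in the Cntn2 window, and CAGCTG was in the Cntn4 window 1 time. GGGCGG was in the Sdk1 window 3 times and in the Sdk2 window 1 time, and CCAAT was in each of these 1 time. Among 32851 windows of the same length, 13% held CAGCTG, 4.84% TAATTA, 32.74% GGGCGG and 33.85% CCAAT. G and C made up 78% of the Sdk1 window, 78.8% of the Sdk2 window, 61.2% of the Cntn2 window and 44.4% of the Cntn4 window, with a median of 52.4% over all windows. A match of letters is a description of the window and no evidence of a bound factor.

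Dscam and Dscaml1 parted after birth. Dscam, on chromosome 16 (GRCm38, 96590840 to 97170752, minus strand), rose from 44.9 ± 1.75 CPM at E14 (SD, n = 3) to 54.3 ± 5.87 at E17 (n = 3) and 65.4 ± 6.41 at P1 (n = 4), and peaked at 104 ± 8.92 at P6 (n = 3). The 3 P6 libraries held 108, 111 and 94.2 CPM, above every library of every other age, of which the highest was 72.9 CPM at P1. It was 61.4 ± 5.99 CPM at P15 (n = 4), 51.5 ± 2.39 at P28 (n = 4) and 49.0 ± 5.12 at P60 (n = 6). The rise from P1 to P6 (log2 fold change 0.67 ± 0.10 SE, adjusted p = 2.8e-06, limma) and the fall from P6 to P15 (-0.76 ± 0.10, adjusted p = 5.6e-07) passed the test. Of neighbours in the order of levels, P6 and P1 differed, and none of the lower neighbours did. Mature against embryonic retina gave a log2 change of 0.12 ± 0.07 (adjusted p = 0.10), with levels of 43.0, 47.7 and 60.6 CPM (lowest, median and highest of 6 embryonic libraries) and 42.7, 53.2 and 68.2 CPM (of 14 mature libraries), which overlapped. That comparison was called under median-of-ratios scaling (0.20, adjusted p = 0.020), by edgeR (0.23, adjusted p = 0.0079), without P60 (0.19, adjusted p = 0.0076) and without E17 replicate 3 (0.16, adjusted p = 0.042). The second Dscam entry, at 5.29 ± 0.65 CPM at E14 and 10.3 ± 1.12 CPM at P6, also rose from P1 to P6 (0.55, adjusted p = 0.025). In the GENCODE annotation, Dscam exons overlap exons of AC154538.2 over 99 bases and of AC154538.1 over 174 bases on the opposite strand, and whether counting used the strand is not given in the sources used here.

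Dscaml1, on chromosome 9 (45426628 to 45753712, plus strand) and known from rod bipolar and AII amacrine cells, had the largest rise of the 10 genes in a single step. Its 3 E14 libraries held 8.70, 9.18 and 8.74 CPM (83 to 87 reads), and its 4 P1 libraries 15.5, 20.7, 21.7 and 15.6 CPM. The 3 P6 libraries held 152, 143 and 133 CPM, so that no P1 and P6 library overlapped. From P1 to P6 the mean rose 7.77-fold (log2 2.91 ± 0.14 SE, adjusted p = 2.4e-17). Later means were 172 ± 14.4 CPM at P15 (n = 4), 175 ± 8.37 at P28 (n = 4) and 221 ± 44.3 at P60 (n = 6). Neighbours among P6, P15, P28 and P60 did not pass the test in the fit of all ages. The step from P6 to P15 (0.26, adjusted p = 0.15), whose libraries did not overlap, was called in a fit of those ages alone (adjusted p = 0.012, limma). Mature retina held 157, 178 and 276 CPM (lowest, median and highest of 14 libraries) against 8.70, 10.9 and 17.6 CPM in 6 embryonic libraries, a 15.6-fold difference of means (log2 3.89 ± 0.09, adjusted p = 4.8e-27). The earlier rise from E14 to E17 was smaller (0.72 ± 0.15, adjusted p = 8.3e-04). Between P1 and P6 the summed level of 6 bipolar cell markers moved from 80.2 to 88.7 CPM to 637 to 855 CPM, that of 5 rod markers from 94.7 to 99.4 CPM to 2252 to 2965 CPM, and that of 5 progenitor markers from 4332 to 4725 CPM to 135 to 182 CPM. The summed level of 6 amacrine markers went down, from 855 to 970 CPM to 600 to 661 CPM. Within that list Tfap2a, Tfap2b and Gad2 had lower means at P6, and Gad1, Slc6a9 and Slc32a1 higher ones. Of these markers, Grm6 and Vsx1 of bipolar cells were at 0 in some P1 libraries (at most 0.591 and 0.123 CPM) and stood at 140.3 ± 20.7 and 52.4 ± 5.70 CPM at P6 (n = 3). The part of these lists in the result was not tested.

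The Sidekicks had their highest means before birth, but Sdk1 was already down at E17. Sdk1 (chromosome 5, 141241490 to 142215586, plus strand) stood at 61.7, 61.7 and 54.0 CPM in the 3 E14 libraries and at 29.6, 31.0 and 27.02 CPM in the 3 E17 libraries. Every E14 library was above every E17 library, and Sdk1 fell by 0.99 on the log2 scale in this step (SE 0.14, adjusted p = 2.4e-06). It was lowest at P1 (23.6 ± 0.9995 CPM, n = 4) and later ran from 25.9 ± 1.52 CPM at P6 (n = 3) to 35.5 ± 7.68 at P60 (n = 6), and of neighbours in the order of levels E14 and P60 alone differed. The step from P6 to P15 (0.32, adjusted p = 0.059) was called under median-of-ratios scaling (0.38, adjusted p = 0.043), by edgeR (0.39, adjusted p = 0.046), with features kept at a mean of 10 CPM (adjusted p = 0.041) and in a fit of those ages alone (adjusted p = 0.014). Sdk2 (chromosome 11, 113776374 to 114067046, minus strand) was highest at E17 (79.3 ± 5.60 CPM, n = 3) and lowest at P6 (37.0 ± 2.41, n = 3). It fell by 0.74 from P1 to P6 (SE 0.15, adjusted p = 1.8e-04), where the P1 libraries held 62.2, 58.9, 69.8 and 59.1 CPM and the P6 libraries 39.7, 36.3 and 35.0 CPM, without overlap. The rise to 49.5 ± 1.10 CPM at P15 (n = 4; 0.41, adjusted p = 0.034) was lost without P6 replicate 2 or 3 or without P15 replicate 2, 3 or 4 (adjusted p 0.054 to 0.11). No neighbours in the order of Sdk2 levels passed the test.

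In mature against embryonic retina, Sdk1 fell from a mean of 44.2 to 32.6 CPM (log2 -0.36 ± 0.08 SE, adjusted p = 2.8e-04) and Sdk2 from 73.4 to 48.5 CPM (-0.60 ± 0.10, adjusted p = 1.8e-06). Both groups overlapped for both genes. Embryonic Sdk1 ran from 27.02 to 61.7 CPM with a median of 42.5, and mature Sdk1 from 26.8 to 48.9 CPM with a median of 32.2. The 3 E17 libraries lay within the mature range and the 3 E14 libraries above it.

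Cntn1 and Cntn2 moved apart. Cntn2 encodes contactin-2 (also TAG-1), known from growing axons, and is the most compact of the 10 genes, with a span of 33.8 kb on chromosome 1 (132509427 to 132543256, minus strand). Its 3 E14 libraries held 207, 205 and 197 CPM (1873 to 2067 reads) and its 3 E17 libraries 95.6, 82.3 and 89.9 CPM. The 4 P1 libraries held 10.5, 8.95, 8.71 and 9.46 CPM (71 to 86 reads). Each of these 3 ages was separate from the others, with falls of 1.18 from E14 to E17 (log2, SE 0.17, adjusted p = 7.3e-06) and of 3.12 from E17 to P1 (SE 0.16, adjusted p = 4.0e-15), the latter 9.48-fold on CPM. From P1 to P60 the means stayed between 8.95 and 11.3 CPM, and no neighbouring ages in the order of levels differed. Embryonic retina was 13.9-fold above mature retina (log2 -3.58 ± 0.10, adjusted p = 2.9e-24), at 82.3, 146 and 207 CPM (lowest, median and highest of 6) against 7.61, 10.7 and 14.8 CPM (of 14). Between E17 and P1 the summed level of 7 ganglion cell markers moved from 757 to 828 CPM to 428 to 501 CPM and that of 4 horizontal cell markers from 370 to 403 CPM to 225 to 234 CPM. Within the first list the transcription factor genes Pou4f1 and Pou4f2 went from 217 to 123 CPM and from 37.7 to 18.0 CPM by means, while Thy1 went from 9.96 to 17.9 CPM, and in the second Onecut1 and Onecut2 hold nearly all of the sum. No marker was at 0, and the part of these lists in the result was not tested.

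Cntn1, which encodes contactin-1, a widely expressed axonal contactin, lies on chromosome 15 (92051165 to 92341967, plus strand). It peaked at P6 as Dscam did, with 144, 150.005 and 155 CPM in the 3 P6 libraries against 81.7, 66.6, 82.9 and 79.6 CPM in the 4 P1 libraries. The P6 libraries were above those of all other ages, of which the highest held 112 CPM at P15. The rise from P1 to P6 was 1.93-fold (log2 0.94 ± 0.11 SE, adjusted p = 1.5e-08), and Cntn1 fell by 0.48 to P15 (SE 0.11, adjusted p = 7.4e-04). A first rise from E14 (58.8 ± 0.78 CPM, n = 3) to E17 (76.0 ± 8.42, n = 3) passed narrowly (0.36, adjusted p = 0.040). It was lost under median-of-ratios scaling (adjusted p = 0.055) and without E14 replicate 1, 2 or 3 or E17 replicate 1 or 3 (adjusted p 0.078 to 0.24). Mature libraries held 66.6, 97.3 and 112 CPM (lowest, median and highest) against 58.0, 64.3 and 85.4 CPM in embryonic ones, an overlap in range with a rise of 0.52 ± 0.07 (adjusted p = 6.0e-08).

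Cntn4 and Cntn5 rose with maturation, Cntn4 later and further. Cntn4, which with App is known from ganglion cells that detect image motion, spans 1022 kb of chromosome 6 (105677660 to 106699310, plus strand). It rose from 9.40, 7.38 and 8.63 CPM in the 3 E14 libraries (70 to 94 reads) to 15.3 ± 1.03 CPM at P1 (n = 4). The P6 libraries held 34.9, 24.9 and 23.6 CPM and the P15 libraries 87.9, 81.5, 87.7 and 77.7 CPM. Levels of successive ages up to P15 did not overlap, and the P6 library that stood highest was still well below the lowest P15 library. Steps called were those from E17 to P1 (0.43 ± 0.11 SE, adjusted p = 0.011), from P1 to P6 (0.80 ± 0.11, adjusted p = 7.1e-07) and from P6 to P15 (1.58 ± 0.11, adjusted p = 1.3e-12), the last 3.01-fold on CPM. The first of these was lost without E17 replicate 1 (adjusted p = 0.070) or E17 replicate 2 (adjusted p = 0.057). The step from E14 to E17 (0.35, adjusted p = 0.064) was called with a pseudocount of 0.1 (adjusted p = 0.046), with features kept at a mean of 10 CPM (adjusted p = 0.037) and without E14 replicate 1 (adjusted p = 0.048). Mature libraries held 62.3, 75.3 and 87.9 CPM (lowest, median and highest) against 7.38, 9.86 and 12.2 CPM in embryonic ones, 7.85-fold higher by means (log2 2.86 ± 0.07, adjusted p = 6.7e-26). Between P6 and P15 the summed levels moved from 378 to 427 CPM to 590 to 743 CPM for 7 ganglion cell markers, from 637 to 855 CPM to 1639 to 1687 CPM for bipolar markers and from 423 to 440 CPM to 968 to 1103 CPM for 5 Müller glia markers. Genes within these lists differed: by means, the ganglion cell genes Nefl and Thy1 went from 204 to 389 CPM and from 28.8 to 68.1 CPM, while Pou4f1 went from 56.1 to 43.7 CPM, Pou4f2 from 7.98 to 5.97 CPM and Rbpms from 43.4 to 46.2 CPM. Among Müller glia genes Glul went from 76.1 to 531 CPM and Slc1a3 from 196 to 121 CPM. Of the bipolar genes Vsx1 alone had a lower mean at P15, going from 52.4 to 28.5 CPM, while Trpm1 went from 141 to 695 CPM. The part of these lists in the result was not tested.

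Cntn5, known with its partner Cntnap4 from direction-selective ganglion cells, has the longest span of the 10 genes, 1244 kb of chromosome 9 (9660891 to 10904775, minus strand). Its level rose in 2 steps, from 12.1 ± 1.23 CPM at E14 to 20.7 ± 1.26 at E17 (n = 3 each; 0.74 ± 0.15 SE, adjusted p = 5.0e-04) and from 19.0 ± 3.15 at P1 (n = 4) to 32.4 ± 2.81 at P6 (n = 3; 0.75 ± 0.14, adjusted p = 4.1e-05). Libraries of the ages on either side of each step did not overlap. From P6 onward the means ran from 32.4 to 39.3 CPM, and no neighbours among them differed. The step from P6 to P15 (0.27, adjusted p = 0.14) was called in a fit of those ages alone (adjusted p = 0.043, limma). Mature libraries held 25.3, 36.6 and 42.1 CPM against 11.3, 16.7 and 22.2 CPM in embryonic ones, without overlap, a 2.24-fold difference of means (log2 1.15 ± 0.09, adjusted p = 2.7e-13). Its exons share 290 bases with those of Gm32710 on the opposite strand.

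The Megf pair behaved differently from each other. Megf11 (chromosome 9, 64385626 to 64709205, plus strand) stayed between 64.2 ± 8.09 CPM (P1, n = 4) and 74.7 ± 4.65 (P15, n = 4) from E14 to P28, and no step among these ages passed the test. The mature and embryonic groups overlapped, at 26.98, 69.6 and 77.5 CPM against 60.5, 70.4 and 77.2 CPM (lowest, median and highest), with a log2 change of -0.15 ± 0.12 (adjusted p = 0.27). The sign turned to 0.07 without P60 (adjusted p = 0.24). The second Megf11 entry had another course up to P15: it held 15.2 ± 1.37 CPM at E14 (n = 3) and 49.9 ± 2.17 CPM at P15 (n = 4), and it rose in mature retina (1.07 ± 0.07, adjusted p = 6.6e-15). From P28 to P60 it fell (-0.39, adjusted p = 0.0097), in the direction of the first entry. With both entries summed, Megf11 rose (0.24, adjusted p = 0.018). What part of the gene each entry covers is not given in the sources used here.

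Megf10 changed more, and in both directions. Its libraries held 13.8, 12.2 and 14.3 CPM at E14 and 46.3, 54.0 and 55.4 CPM at E17, and 63.5, 57.6, 62.8 and 71.2 CPM at P1. The 3 ages did not overlap, though the step from E17 to P1 did not pass the test (0.29, adjusted p = 0.097, limma). From E14 to E17 it rose 3.86-fold (log2 1.87 ± 0.12 SE, adjusted p = 1.1e-13), the largest rise among the 10 genes in that step. It then fell by 0.58 from P1 to P6 (SE 0.11, adjusted p = 5.3e-05) and by 0.59 from P6 to P15 (SE 0.11, adjusted p = 6.9e-05), to 27.7 ± 1.47 CPM at P15 (n = 4) and 18.1 ± 2.28 at P60 (n = 6). P60 remained above E14 (0.39, adjusted p = 9.3e-04). Because E14 was low and E17 high, the mean change between the embryonic and mature periods was small (32.7 to 22.5 CPM, log2 -0.26 ± 0.07, adjusted p = 0.0015). That call was lost by edgeR (-0.16, adjusted p = 0.063) and without P60 (-0.11, adjusted p = 0.10). Between E14 and P1 the summed level of 6 amacrine markers moved from 145 to 168 CPM to 855 to 970 CPM, that of 3 starburst markers from 3.80 to 6.84 CPM to 6.45 to 8.59 CPM and that of 4 horizontal cell markers from 770 to 788 CPM to 225 to 234 CPM. The starburst genes went opposite ways, with means of 0 CPM at E14 and 3.04 at P1 for Chat, 0.102 and 2.61 for Slc18a3, and 5.15 and 1.79 for Slc5a7. Of the horizontal cell genes, Onecut1 went from 227 to 58.8 CPM and Onecut2 from 549 to 166 CPM, while Lhx1 went from 1.57 to 3.86 CPM and Calb1 from 0.541 to 1.44 CPM. The part of these lists in the result was not tested. Megf10 lies on chromosome 18 (57133090 to 57297467, plus strand).

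Step by step, most calls among the 10 genes fell in the steps from E14 to E17, from P1 to P6 and from P6 to P15. From E14 to E17, 4 genes rose (Dscaml1, Cntn1, Cntn5 and Megf10), where 7.56% of features rose, and 2 fell (Sdk1 and Cntn2), where 3.02% fell. From E17 to P1, 1 rose (Cntn4), against 5.77% of features, and 1 fell (Cntn2), against 3.43%. From P1 to P6, 5 rose (Dscam, Dscaml1, Cntn1, Cntn4 and Cntn5), against 18.0% of features, and 2 fell (Sdk2 and Megf10), against 20.4%. The median log2 change of the 10 genes in this step was 0.40, against -0.03 over all features. From P6 to P15, 2 rose (Sdk2 and Cntn4), against 14.4%, and 3 fell (Dscam, Cntn1 and Megf10), against 19.0%. From P15 to P28 no gene was called by limma or by edgeR, with 2 at an unadjusted p under 0.05, where 1.14% of features rose and 1.58% fell. From P28 to P60 no gene rose, against 4.80% of features, and 2 fell (Cntn1 and Megf11), against 8.11%.

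**Figure D2:**
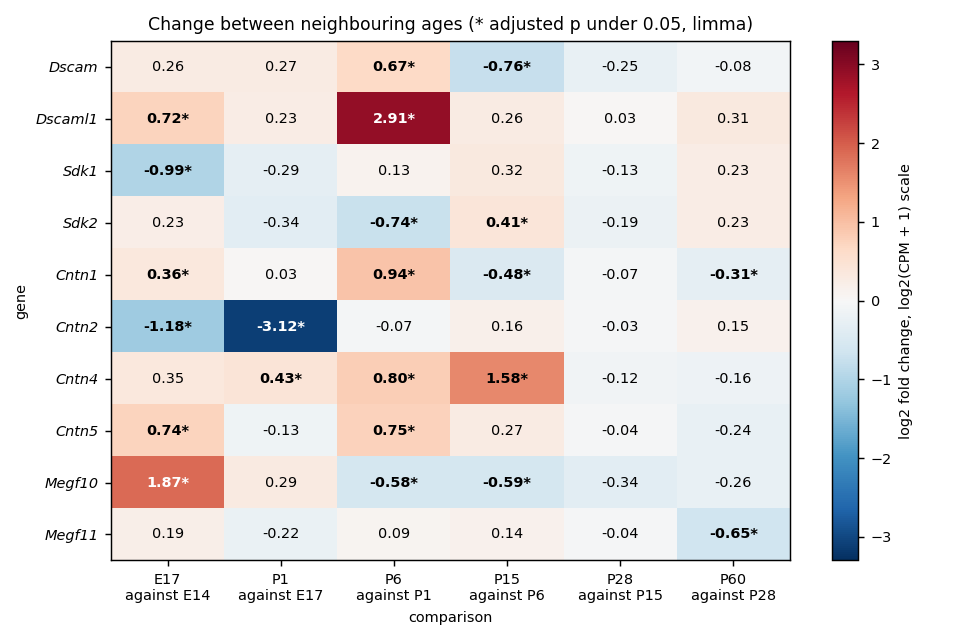
Log2 fold change, on the log2(CPM + 1) scale, of each of the 10 genes (rows) between each age and the one before it (columns), printed in the cell and shown by colour from blue (lower) to red (higher). Bold with an asterisk marks an adjusted p under 0.05; the darkest cells are Dscaml1 from P1 to P6 (2.91) and Cntn2 from E17 to P1 (-3.12), and the P15 to P28 column has no asterisk.

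Setting relatives against each other within a library gave 5 ratios, each tested between 6 embryonic and 14 mature libraries by an exact permutation test (two-sided, 38760 permutations). The smallest p that this design allows is 2.58e-05, and adjusted values cover the 5 ratios. Single libraries were shuffled between the periods without regard to age, although ages within a period could differ. For Cntn1 to Cntn2, the log2 ratio was -1.77 ± 0.05 at E14 and -0.23 ± 0.06 at E17. The p-values therefore do not measure the spread between the ages of a period. The log2 ratio of Dscam to Dscaml1 moved from 1.99 ± 0.28 (SD) to -1.83 ± 0.32, a difference of -3.82 (exact permutation p = 2.58e-05, adjusted p = 4.3e-05). It crossed 0 between P1 (1.43 to 2.15 in 4 libraries) and P6 (-0.50 to -0.36 in 3 libraries), so Dscam CPM was the higher in all libraries up to P1 and Dscaml1 CPM in all later ones. The log2 ratio of Cntn1 to Cntn2 moved from -1.001 ± 0.84 to 3.06 ± 0.45 (difference 4.06), and that of Cntn4 to Cntn5 from -0.66 ± 0.27 to 1.05 ± 0.21 (difference 1.71), both also at p = 2.58e-05 (exact permutation test; adjusted p = 4.3e-05). In none of these 3 ratios did embryonic and mature libraries overlap.

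Sdk1 to Sdk2 and Megf10 to Megf11 did not pass between the periods, and both had a turn within them. The log2 ratio of Sdk1 to Sdk2 differed by 0.25 (exact permutation p = 0.22, adjusted p = 0.27). It was -0.19 ± 0.10 at E14, -1.41 ± 0.16 at E17, -1.37 ± 0.16 at P1 and -0.50 ± 0.01 at P6. Without E14 replicate 2 the difference was 0.39 (exact permutation p = 0.042). The log2 ratio of Megf10 to Megf11 differed by -0.08 (exact permutation p = 0.77, adjusted p = 0.77), having gone from -2.20 ± 0.22 at E14 to -0.00 ± 0.14 at P1 and -1.70 ± 0.08 at P28. With both Megf11 entries summed, the difference was -0.48 (exact permutation p = 0.04995).

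**Figure D3:**
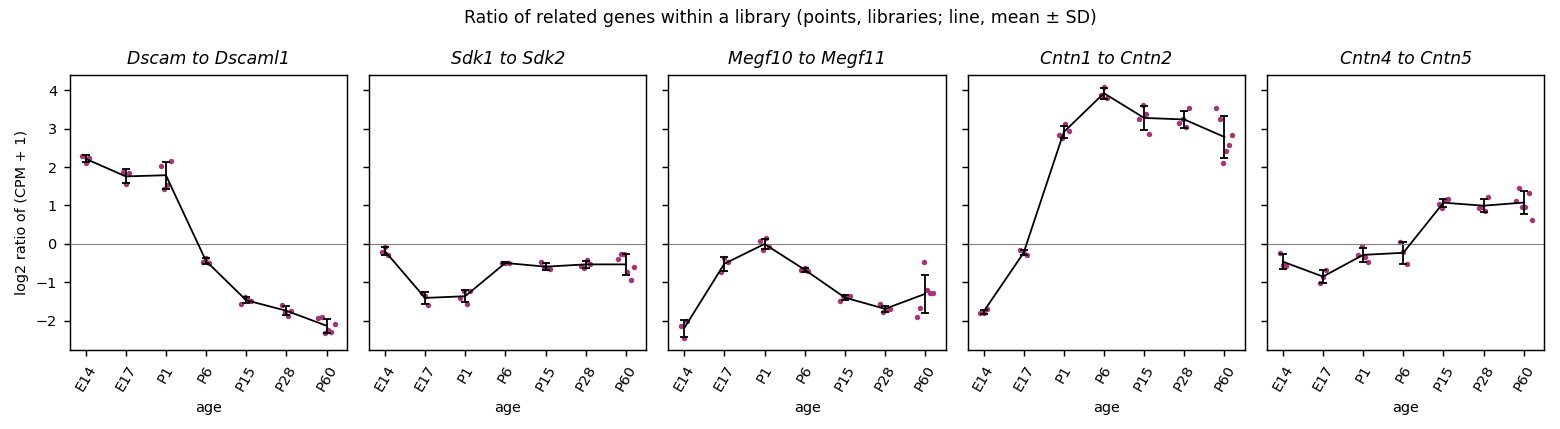
Log2 ratio of (CPM + 1) for 5 pairs of related genes at the 7 ages, on 1 shared linear axis with a line at 0. Points are libraries and lines join age means with bars of 1 SD; Dscam to Dscaml1 passes from 1.79 at P1 to -0.45 at P6, Cntn1 to Cntn2 from -0.23 at E17 to 2.92 at P1, and Megf10 to Megf11 rises to -0.00 at P1 and falls again.

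The 6 P60 libraries were less alike than those of other ages for several of these genes. Megf11 stood at 73.6 and 69.6 CPM in replicates 1 and 2 and at 26.98, 39.7, 36.5 and 45.8 CPM in replicates 3 to 6, whereas P28 libraries ran from 69.4 to 76.4 CPM. Dscaml1 stood at 171 and 164 CPM in replicates 1 and 2 and at 276, 249, 233 and 234 CPM in replicates 3 to 6, against 163 to 181 CPM at P28. Sdk2 stood at 36.7 and 34.6 CPM in the first pair and at 59.2, 57.1, 71.8 and 57.2 CPM in the others, against 39.1 to 45.5 CPM at P28. For Megf11 and Dscaml1 the first pair lay within the P28 range. Cntn1 stood at 99.7 and 90.3 CPM in the first pair and at 66.6, 69.6, 83.6 and 86.8 CPM in the others. In all, the first pair and the other 4 libraries did not overlap for 8 of the 10 genes, with the 4 libraries higher for 5 (Dscam, Dscaml1, Sdk1, Sdk2 and Cntn2), against 16.1% of features, and lower for 3 (Cntn1, Cntn4 and Megf11), against 21.7% of features. Cntn5 and Megf10 overlapped. This division was made after the values were seen. The same 2 and 4 split is in the methods' account of pools and single mice, but no source assigns the libraries, and what sets them apart was not tested.

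Of the P28 to P60 calls, that of Cntn1 was lost without single libraries and that of Megf11 was not. Megf11 was low in all of P60 replicates 3 to 6, so leaving out 1 library is a weak check of its call. Megf11 fell by 0.65 (SE 0.16, adjusted p = 0.012), and this was lost in a fit of these 2 ages alone (adjusted p = 0.21). Cntn1 fell by 0.31 (SE 0.09, adjusted p = 0.029), and this was lost by edgeR (adjusted p = 0.054), under median-of-ratios scaling (adjusted p = 0.055), in a fit of these ages alone (adjusted p = 0.22) and without P28 replicate 1, 2 or 4 or P60 replicate 3 or 4 (adjusted p 0.058 to 0.10). Without P60 replicate 1 or replicate 2, 6 genes were called in place of 2, of which 3 rose: Dscaml1 (0.38 and 0.39), Sdk1 (0.30 and 0.29) and Sdk2 (0.33 and 0.34). Megf10 then fell as well (-0.27 and -0.30). By edgeR, 1 gene rose (Dscaml1, 0.41, adjusted p = 0.030) and 1 fell. The share of all features called was not counted for these alternative fits, so the counts cannot be set against it.

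**Figure D4:**
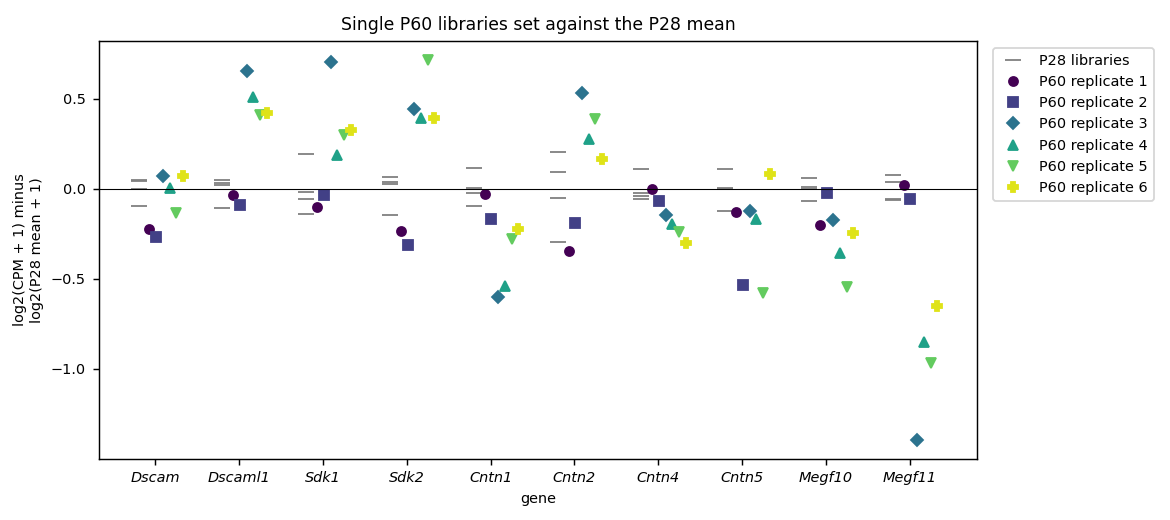
Each P60 library (coloured symbols, 6 replicates) and each P28 library (grey dashes, 4) as the difference of log2(CPM + 1) from the log2 of the P28 mean plus 1, for the 10 genes. Replicates 3 to 6 lie apart from replicates 1 and 2 for Dscaml1 (higher), Sdk2 (higher) and Megf11 (lower, from -0.65 to -1.39), and by less for Dscam, Sdk1, Cntn1, Cntn2 and Cntn4, while for Cntn5 and Megf10 they overlap.

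The wider set of recognition genes was read from a list of 63 related genes, all of which passed the filter. In mature against embryonic retina 23 rose, against 35.0% of features, 33 fell, against 40.4%, and 7 were not called, with a median log2 change of -0.28. At 2-fold, 15 rose, against 14.9% of features, and 18 fell, against 16.1%. The largest rises were those of Unc5d, a netrin receptor gene (3.20, from 2.91 ± 0.38 CPM at E14 to 60.4 ± 1.22 at P15), Cntnap1, which encodes the Caspr partner of contactin-1 (2.57, from 5.85 ± 0.78 to 46.8 ± 2.496), and the cadherin gene Cdh8 (2.27, from 8.57 ± 0.80 to 56.2 ± 2.95). The largest falls were those of Megf6 (-3.32, from 17.5 ± 1.76 CPM at E14 to 0.40 ± 0.30 at P28), the semaphorin co-receptor gene Plxna3 (-2.16, from 57.0 ± 3.92 to 10.1 ± 1.45) and Cdh11 (-1.97, from 334 ± 6.66 to 72.3 ± 1.77). Dscaml1 rose by more than any gene of the list, on this scale and in CPM (15.6-fold, with Unc5d next at 10.4-fold). Cntn2 fell by more than any of them on this scale but not in CPM, where embryonic Megf6 was 18.5-fold above mature Megf6, against 13.9-fold for Cntn2. The mature Megf6 level rested on few reads, with lowest libraries of 0.133 CPM at P28 and 0.141 CPM at P60, each worth 1 read. These differences between genes were not tested.

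Named partners of the 10 genes did not all pass the test. Cntnap4, partner of Cntn5, changed by 0.19 (SE 0.12, adjusted p = 0.15) and App, partner of Cntn4, by -0.05 (SE 0.04, adjusted p = 0.21), while Cntn5 and Cntn4 rose. The 3 MAGI scaffold genes, whose proteins bind the tails of DSCAM and Sidekick proteins, differed from each other. Magi1 fell (-1.07 ± 0.08, adjusted p = 5.6e-14), from 181 ± 2.84 CPM at E14 to 102 ± 3.41 at P15, Magi2 rose (1.12 ± 0.05, adjusted p = 2.7e-19), from 32.5 ± 2.18 to 122 ± 3.51, and Magi3 rose less (0.28 ± 0.05, adjusted p = 1.7e-05). Of the other contactins, Cntn3 (-1.03, adjusted p = 1.7e-06) and Cntn6 (-0.57, adjusted p = 1.5e-07) fell.

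By family, where 35.0% of all features rose and 40.4% fell, 7 of 14 contactin relatives and partners rose and 4 fell, and 5 of 9 cadherins rose and 3 fell. Of 10 teneurin, Flrt and latrophilin genes 1 rose and 7 fell, of 7 semaphorins and plexins of lamination 2 rose and 5 fell, of 8 scaffold and netrin pathway genes 3 rose and 5 fell, of 4 L1 family genes 1 rose and 3 fell, of 6 nectins and other immunoglobulin genes 2 rose and 4 fell, and of 5 Megf relatives and adaptor genes 2 rose and 2 fell. In the step from E14 to E17 the list of 63 genes had 22 rises and 8 falls, against 7.56% and 3.02% of features. From P1 to P6, the step in which most of the 10 genes were called, the list had 23 rises and 24 falls, against 18.0% and 20.4% of features. From P15 to P28 it had 1 rise and 9 falls, against 1.14% and 1.58%.

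**Figure D5:**
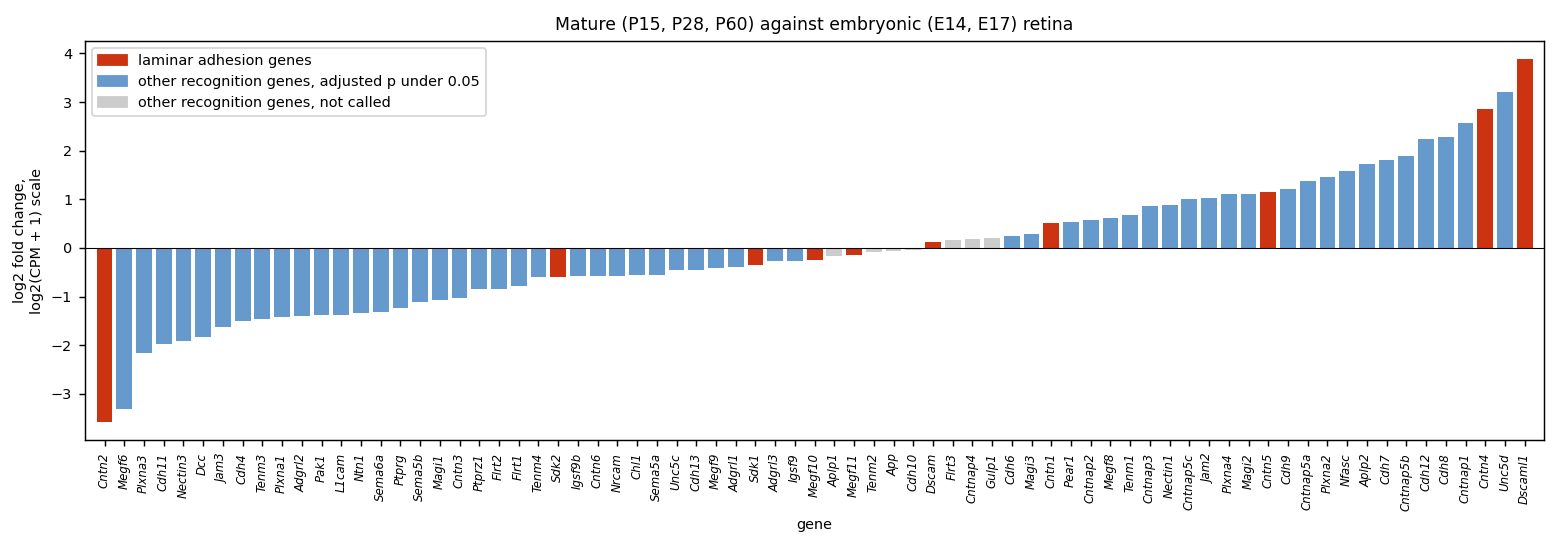
Log2 fold change of mature against embryonic retina, on the log2(CPM + 1) scale, for the 10 laminar adhesion genes (red) and the 63 related recognition genes (blue, adjusted p under 0.05 by limma; grey, not called), in order of size. The red bars are at both ends (Cntn2 at -3.58, Dscaml1 at 3.89) and through the middle, where Dscam (0.12) and Megf11 (-0.15) were not called either.

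Levels can be compared between genes only per length, here as CPM divided by the kb of merged GENCODE exons. At E14 Cntn2 was highest at 21.8 ± 0.55 CPM per kb (n = 3), the next was Cntn1 at 6.23 ± 0.08, and Cntn4 and Dscaml1 were lowest at 0.998 ± 0.12 and 0.996 ± 0.03. At P60 the ends had changed places, with Dscaml1 highest at 24.8 ± 4.98 CPM per kb (n = 6) and Cntn2 lowest at 1.22 ± 0.30. Per kb, Sdk1 was above Sdk2 at E14 (5.33 ± 0.40 against 4.36 ± 0.22) and below it at E17 (2.63 ± 0.18 against 5.13 ± 0.36). Whether reads in introns were counted is not given in the sources used here, and exons make up from 0.36% (Cntn5) to 27.5% (Cntn2) of the spans of these genes.

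Features whose log2 levels followed each gene most closely over the 27 libraries are given as a description, since age moves most features and the libraries share a scaling. Dscaml1 was closest to Gpr179, which encodes a protein of the ON bipolar cell synapse (Pearson r = 0.996), followed by Bbs9 and Cpt1a (both 0.99). Cntn4 was closest to Tppp (0.996), Slc24a2 and Nap1l5 (both 0.99), and Cntn5 to Sphkap, Smim17 and Car10 (all 0.95). Dscam was closest to Prob1 (0.94), Tmem86a (0.93) and a second entry of Trib1 (0.92). Cntn1 was closest to Samd12, Dcun1d3 (both 0.93) and Epb41l5 (0.92), and Cntn2 to Spock1 (0.97), Hspa4 (0.96) and Ecel1 (0.95). Megf10 was closest to Runx1t1 (0.96), Grik3 and Tnik (both 0.95), and Megf11 to Strbp (0.93), D030059C06Rik and a second entry of Tenm2 (both 0.91). The Sidekicks had looser matches, Sdk1 to Fgd6 (0.90), Ccnd3 (0.88) and Synpo (0.87), and Sdk2 to Fxyd6 (0.90), Vwa7 (0.89) and Slit1 (0.88). Among the 10 genes themselves, r was 0.94 for Dscaml1 with Cntn4, 0.90 for Dscaml1 with Cntn5 and 0.88 for Cntn4 with Cntn5, and -0.76 for both Sdk2 with Cntn1 and Sdk1 with Megf10.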

How the data were processed

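Whole retina RNA of 27 libraries at 7 ages was measured. The authors prepared total RNA libraries, sequenced single-end reads of 50 bases, aligned them with STAR to mm10 (submitters' processing notes) and deposited 1 table of CPM values per feature and library. The annotation and strand setting of the counting are not given in the sources used here. All values (100%) were whole multiples of what 1 read is worth (tolerance 0.05 reads), which gave the recovered totals. In E14 replicate 1 this step could not be judged automatically, and the count test was also run without that library.

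Values were taken as log2(CPM + 1), on which fold changes of low genes are understated. Features reaching 1 CPM in 3 or more libraries entered a fit with limma 3.58.1 (R 4.3.3, mean-variance trend) over all 27 libraries with age as factor, and p-values were adjusted by Benjamini-Hochberg over the 31760 features. Calls are at an adjusted p under 0.05. edgeR 4.0.16 (quasi-likelihood) on recovered reads was an alternative, and fits were tested on simulated data. Ratios used exact permutation tests, and scipy 1.17.1 adjusted their p-values over the 5 ratios. For each member the 3 features with the highest r were named, and of the list of 63 genes the 3 largest rises and falls called and 5 partners, with Cntn3 and Cntn6 added after their values were seen. Members and lists were chosen with earlier results of these data known.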

Additional observations from a re-analysis of the deposited data

Results flagged for a closer look

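In 40 sets of libraries (10 genes at the 4 ages with 4 to 6 libraries), 2 held a library far from the others of its age by Dixon's test, where chance gives about 1 in 20. Both were the lowest value of P15 replicate 4. Cntn1 was 94.02 CPM in that library and 111.1 to 111.7 CPM in the other 3, and Megf11 was 67.76 CPM against 76.0 to 77.5 CPM. Leaving that library out changed no call of Cntn1 or Megf11 in the comparisons that use P15.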

How the results depend on the processing

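In mature against embryonic retina, 8 genes were called, and 8 to 9 over 30 alternatives, while of the 63 recognition genes 56 were called (56 to 60, and 47 of the 53 that remained with features kept at a mean of 10 CPM). Of 70 results for a gene in a comparison, 45 kept their call and direction under all alternatives; among 1290 alternative values of the 70, 29 lost a call, 30 gained one and 9 turned in sign. The median of all features between these periods was -0.06, and -0.00 under median-of-ratios scaling and 0.04 by edgeR. From E17 to P1, 2 genes were called, 4 in a fit of those ages alone (Sdk1 and Sdk2 added) and 1 to 2 without single libraries. From P6 to P15, 5 were called and 8 in a fit of those ages alone (Dscaml1, Sdk1 and Cntn5 added). From P15 to P28, 0 were called, and 1 (Megf10) with features kept at a mean of 10 CPM or in a fit of those ages alone. From P28 to P60, 2 were called, 1 under median-of-ratios scaling, 0 in a fit of those ages alone and 1 to 6 without single libraries. Replicate numbers did not pair libraries: deviations of same-numbered libraries correlated at -0.13 to 0.17 over 69 pairs. With a replicate block, 0 genes were called from P28 to P60 (adjusted p = 0.059 for Megf11 and 0.055 for Cntn1, limma) and 8 between the periods. Shares of all features called were not counted under these alternatives, save by edgeR between the periods.

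The Megf10 to Megf11 ratio moved by -0.48 with entries summed and by -0.30 to 0.11 without single libraries, turning in sign without E17 replicate 1, 2 or 3. Sdk1 to Sdk2 moved by 0.088 to 0.39 without single libraries. Megf11 turned to 0.074 without P60 and to 0.24 with entries summed, both alternatives added after seeing the data. Without single libraries, values near 0 turned in sign for Cntn1 from E17 to P1 (-0.035 to 0.12), Cntn2 from P1 to P6 (-0.16 to 0.0087) and Dscaml1 (-0.012 to 0.083), Cntn2 (-0.12 to 0.063) and Cntn5 (-0.10 to 0.0019) from P15 to P28. Causes were not tested. Counts were lowest for Cntn2 (58 reads in 1 P60 library), Cntn4 (70 in 1 E14 library) and Dscaml1 (83 in 1 E14 library).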
